A study of Homo sapiens with 4 samples.

Results

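H3.3 intervals just downstream of promoters are stretches of chromatin, called as enriched for the histone variant H3.3, that lie inside a protein-coding gene shortly after its start. An interval was counted here when it overlapped a protein-coding gene of GENCODE release 44, had its centre 1 to 5 kb downstream of that gene's 5′ end in the direction of transcription, and lay more than 1 kb from any annotated transcription start site (TSS). On chromosomes 1 to 22 and X, 3360 of the 88806 distinct intervals of cells without UV met these conditions, a share of 3.78% (95% interval 3.66 to 3.91%). After UV, 3108 of 77173 intervals did, a share of 4.03% (95% interval 3.89 to 4.17%). The mirror zone, 1 to 5 kb upstream of a protein-coding 5′ end and under the same limit on TSSs, held 4003 intervals without UV and 3651 after UV. As neighbouring genes can lie close together, 798 of the downstream intervals without UV and 725 of those after UV were also upstream of another gene. The 95% intervals of shares are exact (Clopper-Pearson) and account for nothing but counting error.

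The intervals came from chromatin immunoprecipitation and sequencing with an antibody to H3.3 in human lung fibroblasts, named MRC5 in the labels and MRC5_VA, an SV40-immortalized line from fetal lung, in the study. Both groups carry the same genotype. One was left untreated (no UV), and the other was harvested 3 h after 10 J/m2 of UV-C (UV). The DNA of replicates was pooled before sequencing, so each condition is 1 library. Differences between the lists therefore lack replicates, and the conditions were not tested against each other. The deposited lists carry no read numbers, so the depth of each library is unknown from them. Fold enrichment and −log10 q are computed within a library and depend on its depth, and they are set side by side below without being compared as levels. Of the fixed cell type markers, 8 of 14 fibroblast genes had an interval within 1 kb of a TSS in each list, as did 5 of 8 epithelial genes, none of 4 endothelial genes and none of 4 blood cell genes. VIM, FN1, COL1A1 and COL1A2 were among the fibroblast genes with one in both lists, while DCN, LUM, THY1 and COL3A1 had none in either. KRT8, KRT18, CDH1, CLDN4 and SFTPC were the epithelial genes with one, and EPCAM and NKX2-1 had none.

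H3.3 is the replication-independent form of histone H3. Cells build it into chromatin throughout the cell cycle where nucleosomes are lost, which happens at promoters, enhancers and along transcribed genes. The HIRA complex carries out much of this deposition in active chromatin, and DAXX with ATRX does so at telomeres and other repeats. The first kilobases of a gene hold the first nucleosomes that elongating RNA polymerase II meets and often the first intron, which in many genes contains regulatory elements. The corresponding stretch upstream is not transcribed in the direction of the gene and can hold enhancers, divergent transcripts or another gene. Comparing both sides shows how H3.3 intervals are placed with respect to the direction of the gene.

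The sequence under the strongest intervals is shown first, since base composition recurs in the results below. Each is the 300 bp of hg38 around the strongest summit, written 5′ to 3′ in the direction of the gene, with matches to 9 transcription factor motifs in capitals. Among the strongest intervals without UV that have a UV counterpart are those of C1QL4 (chr12:49333142-49333441, minus strand) and NCR3LG1 (chr11:17353387-17353686, plus strand).
C1QL4: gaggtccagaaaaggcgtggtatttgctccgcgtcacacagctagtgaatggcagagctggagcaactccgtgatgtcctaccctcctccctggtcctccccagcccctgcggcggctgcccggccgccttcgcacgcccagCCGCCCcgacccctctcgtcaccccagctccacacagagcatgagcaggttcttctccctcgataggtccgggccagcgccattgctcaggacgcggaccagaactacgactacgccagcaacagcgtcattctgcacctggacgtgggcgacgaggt
NCR3LG1: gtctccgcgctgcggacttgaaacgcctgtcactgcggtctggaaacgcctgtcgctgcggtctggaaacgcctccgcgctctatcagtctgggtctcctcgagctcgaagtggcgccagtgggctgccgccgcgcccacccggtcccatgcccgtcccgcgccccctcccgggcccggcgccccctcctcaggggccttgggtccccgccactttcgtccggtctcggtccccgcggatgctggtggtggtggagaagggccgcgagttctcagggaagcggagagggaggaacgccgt
The 2 strongest intervals found only after UV were those of RIMBP3 (chr22:18609508-18609807, minus strand) and INKA1 (chr3:49804662-49804961, plus strand).
RIMBP3: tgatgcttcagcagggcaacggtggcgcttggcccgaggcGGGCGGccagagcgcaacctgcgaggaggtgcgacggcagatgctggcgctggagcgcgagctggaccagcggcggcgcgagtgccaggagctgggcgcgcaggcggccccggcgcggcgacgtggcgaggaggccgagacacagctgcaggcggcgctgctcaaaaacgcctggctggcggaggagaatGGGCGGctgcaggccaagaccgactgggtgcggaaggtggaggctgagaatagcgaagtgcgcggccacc
INKA1: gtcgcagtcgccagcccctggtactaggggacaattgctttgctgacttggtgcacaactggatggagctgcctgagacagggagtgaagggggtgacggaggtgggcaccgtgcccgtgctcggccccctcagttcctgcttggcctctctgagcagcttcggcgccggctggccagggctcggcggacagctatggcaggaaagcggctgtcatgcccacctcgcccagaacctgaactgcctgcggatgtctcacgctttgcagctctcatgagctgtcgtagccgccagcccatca
The capitals mark GGGCGG, the letters of the GC box bound by SP and KLF factors, or its reverse complement, with 1 match at C1QL4 and 2 at RIMBP3. None of the other 8 motifs matched in these 4 windows. The GC content of the windows was 64.7% at C1QL4, 71.0% at NCR3LG1, 72.0% at RIMBP3 and 64.0% at INKA1.

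Density was compared between the sides over eligible bases, which are the positions where the centre of an interval of median width can lie while meeting the conditions. Downstream there were 70.0 intervals per eligible Mb without UV and 65.0 after UV. Upstream there were 65.7 and 60.1. The ratio of downstream to upstream density was 1.07 without UV (95% interval 1.02 to 1.12) and 1.08 after UV (95% interval 1.03 to 1.13). It was above 1 on 17 of 23 chromosomes in each list. Intervals that lie in both zones count on both sides here, which the 95% intervals do not allow for. With these intervals and the bases in both zones left out, the ratio was 1.05 without UV (95% interval 1.00 to 1.11). After UV it was 1.07 (95% interval 1.02 to 1.13). Both zones were denser than the remaining parts of protein-coding genes, which held 36.9 intervals per Mb without UV and 29.3 after UV, and than the rest of the genome outside genes, which held 13.4 and 10.7. The excess over upstream was small and did not exceed counting error throughout: with genes of at least 6 kb only, the ratio was 1.04 without UV (95% interval 0.989 to 1.09) and 1.04 after UV (95% interval 0.985 to 1.09), and with a −log10 q of at least 5 it was 1.01 without UV (95% interval 0.944 to 1.08) and 1.06 after UV (95% interval 0.988 to 1.13).

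A ratio near 1 over the whole zone covered opposite differences at its ends. Between 1 and 2 kb from the 5′ end the downstream side was the sparser one, with a ratio of 0.810 without UV (95% interval 0.726 to 0.902) and 0.847 after UV (95% interval 0.759 to 0.944). Between 3 and 5 kb it was the denser one, with a ratio of 1.20 without UV (95% interval 1.13 to 1.28) and 1.21 after UV (95% interval 1.13 to 1.30). The crossing came mainly from the upstream side. Counting each interval once per gene, upstream density without UV was 81.4 per Mb at 1 to 2 kb, 71.0 at 2 to 3 kb, 61.8 at 3 to 4 kb and 57.9 at 4 to 5 kb. Downstream density in the same steps was 65.4, 72.6, 72.2 and 70.9 per Mb. After UV, upstream density was 77.5, 64.9, 52.8 and 54.9 per Mb in these steps, and downstream density 65.9, 66.9, 65.9 and 64.2. H3.3 intervals upstream of promoters thus became sparser between 1 and 4 kb, while those inside the gene kept a nearly even density over 4 kb. The split by distance was chosen after the distance profile was seen, and both ratios stayed on their side of 1 under each of the 8 alternatives run for them. The 95% interval of the 1 to 2 kb ratio reached 1.03 after UV when intervals with a −log10 q under 5 were dropped.

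**Figure D1:**
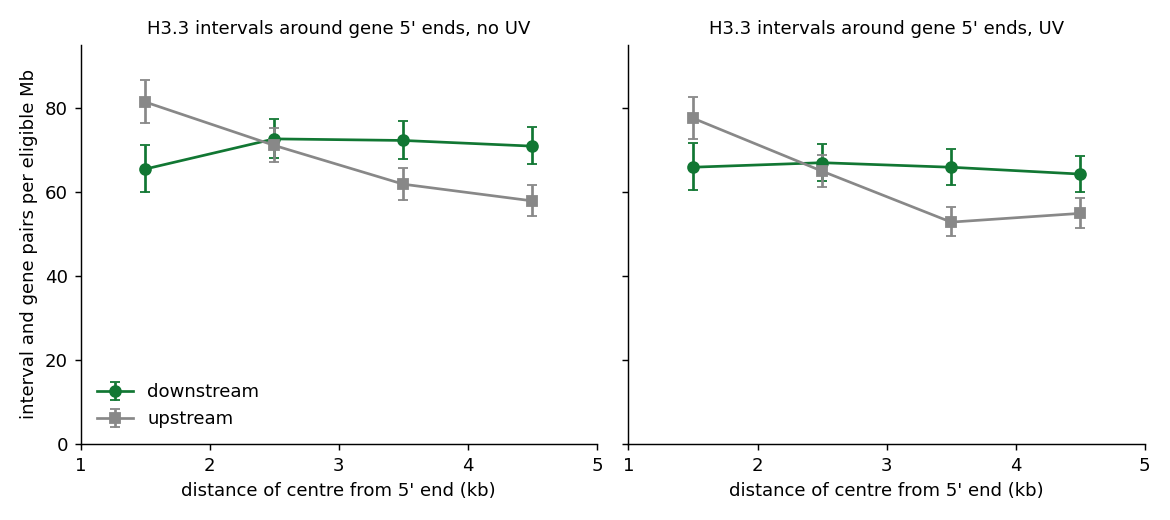
Density of H3.3 intervals (interval and gene pairs per eligible Mb) against the distance of their centre from the 5′ end of protein-coding genes (kb), without UV (left) and after UV (right); points are 1-kb steps placed at the middle of each step, and bars are exact 95% Poisson intervals. Upstream density without UV falls from 81.4 to 57.9 per Mb across the 4 steps, while downstream density lies between 65.4 and 72.6.

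The downstream intervals were of moderate strength within their lists. Their median −log10 q was 4.71 without UV and 5.37 after UV, and the median member stood at percentile 46.9 of all intervals without UV and 45.3 after UV. The median interval was 409 bp wide without UV and 422.5 bp wide after UV, with a median fold enrichment of 4.08 and 4.25. Most held a single summit: 363 without UV (10.8%) and 313 after UV (10.1%) had several, with at most 5. The widest spanned 3345 bp without UV and 3207 bp in the UV list.

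By the position of the summit in the Ensembl canonical transcript of the gene, 50.7% of the intervals without UV (95% interval 49.0 to 52.4%) and 48.6% after UV (95% interval 46.8 to 50.3%) lay in the first intron. Later introns held 27.3% and 26.8%, coding sequence 5.45% and 7.82%, and 3′ UTRs 2.62% and 3.09%. Of positions sampled evenly over the eligible bases, 54.2% were in a first intron, 23.3% in a later intron, 4.07% in coding sequence and 3.22% in a 3′ UTR. The share in the first intron was thus below that of the zone in both lists. Coding sequence had more than its share of bases in both lists. Its 95% intervals were 4.70 to 6.27% without UV and 6.90 to 8.82% after UV. They cover counting error within a list only, and without replicate libraries the difference between the lists was not tested. The median GC content of downstream intervals also differed, at 50.4% without UV and 51.5% after UV, and its part was not tested.

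Most protein-coding genes had no downstream interval. Of genes with eligible bases, 14.5% had at least 1 without UV and 13.7% after UV, or 2661 of 18410 and 2518 of 18392 genes. In both lists together 3526 genes had one, of which 1654 had it in both lists, 1008 only without UV and 864 only after UV. Within 1 kb of a TSS, 8288 of the 18410 genes had an interval in both lists, 604 only without UV and 1737 only after UV. Of intervals without UV, 56.6% downstream, 59.1% upstream and 57.3% of the whole list overlapped a UV interval. Of UV intervals, 61.6% downstream, 65.3% upstream and 65.6% of the whole list overlapped one without UV. Intervals in 1 list only were thus not particular to the downstream zone. A single interval was the rule, while 139 genes without UV and 98 after UV had 3 or more.

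STK11 and R3HDM4 had the most downstream intervals over both lists, with 11 and 8, followed by SOD2, ERBIN, MTRFR, SLC7A5 and ASB16, which tied at 7. STK11, which encodes the kinase LKB1 upstream of AMPK, had 5 without UV and 6 after UV. All 5 intervals of STK11 without UV overlapped a UV interval, and the sixth after UV, centred 1306 bp from the 5′ end, also overlapped an interval without UV. R3HDM4 had 4 in each list. SOD2, the mitochondrial superoxide dismutase, had 4 without UV and 3 after UV, and its interval at 4356 bp, with a −log10 q of 2.90, had no UV counterpart. ERBIN, a scaffold protein that binds the receptor ERBB2, also had 4 without UV and 3 after UV, and the interval at 4293 bp, with a −log10 q of 2.62, was without UV only. MTRFR, a mitochondrial release factor that rescues stalled ribosomes, had 4 and 3, as did SLC7A5, a subunit of an amino acid transporter, and ASB16. The strongest interval of SLC7A5 without UV, at 3010 bp with a −log10 q of 9.14, had no UV counterpart. Neither had that of ASB16 at 2023 bp, with 3.205. All of these genes but MTRFR had an interval within 1 kb of a TSS in both lists, and MTRFR had one after UV only. In the genes drawn in the map, the intervals were called as a row of separate stretches rather than 1 domain. The signal between them was not examined. At R3HDM4, the interval without UV at 2520 bp, 1419 bp wide, overlapped UV intervals at both 1782 and 3016 bp.

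**Figure D2:**
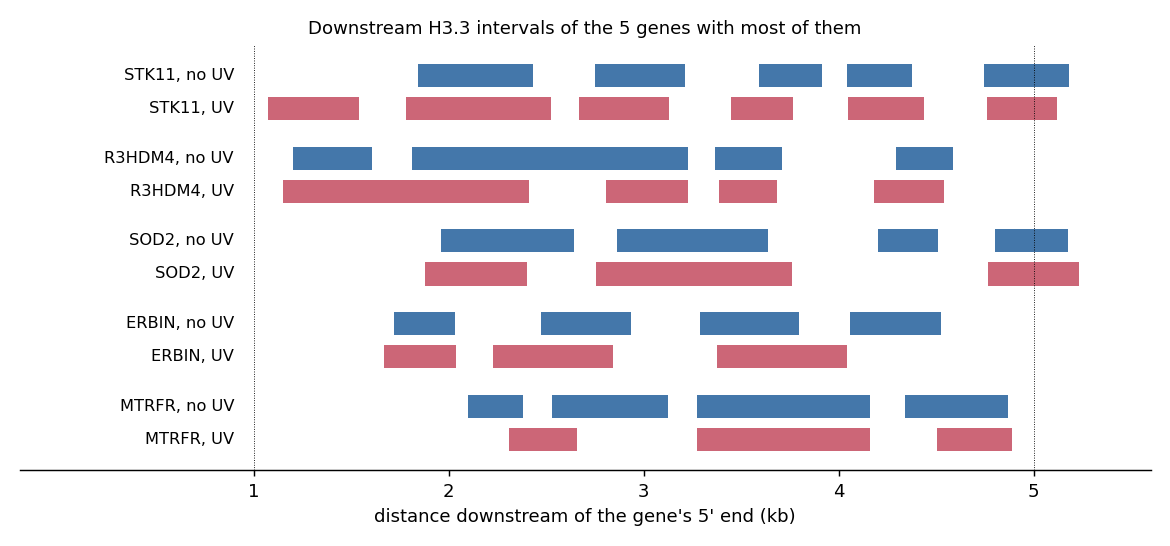
Downstream H3.3 intervals of STK11, R3HDM4, SOD2, ERBIN and MTRFR, of which the last 3 tie with SLC7A5 and ASB16 (not drawn), drawn to scale against the distance from the gene's 5′ end (kb); blue bars are intervals without UV, red bars intervals after UV, and dotted lines the 1-kb and 5-kb limits for the centre. STK11 has 5 bars without UV and 6 after UV, and most bars of a gene lie over one of the other list.

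Genes with H3.3 at their own TSS had downstream intervals more often. Without UV, 22.8% of genes with an interval within 1 kb of a TSS had one (95% interval 21.9 to 23.7%), against 6.66% of the other genes (95% interval 6.17 to 7.18%). After UV the shares were 20.3% (95% interval 19.6 to 21.1%) and 5.74% (95% interval 5.25 to 6.26%). The mirror zone showed the same order, with 25.4% against 7.13% without UV and 22.2% against 5.68% after UV, so this was not particular to the side inside the gene. Of the genes with a downstream interval, 76.2% without UV and 80.9% after UV had a TSS interval in the same list.

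Genes whose TSS interval was found in 1 list only had downstream intervals at shares that overlapped between the lists. Among the 1737 genes whose TSS interval was found after UV only, 250 (14.4%, 95% interval 12.8 to 16.1%) had a downstream interval without UV and 249 (14.3%, 95% interval 12.7 to 16.1%) after UV. Among the 604 genes with a TSS interval without UV only, 115 (19.0%, 95% interval 16.0 to 22.4%) had one without UV and 100 (16.6%, 95% interval 13.7 to 19.8%) after UV. Genes with a TSS interval in both lists had one in 23.1% of cases without UV and 21.6% after UV, and genes with none in either list in 4.94% and 4.90%. Each class had a smaller count after UV, in lists of unequal length.

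**Figure D3:**
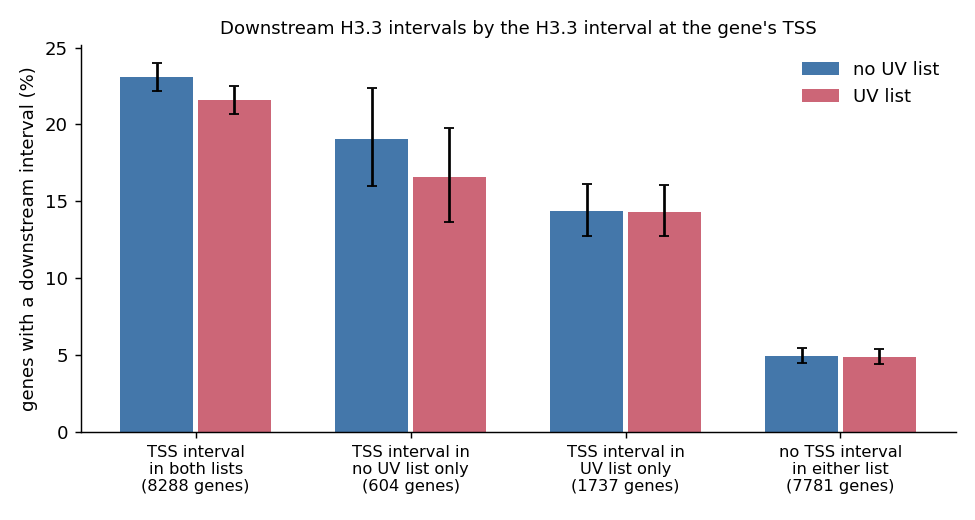
Share of protein-coding genes with a downstream H3.3 interval (%) by whether the gene had an interval within 1 kb of a TSS in both lists, in one or in none; blue bars are the list without UV, red bars the UV list, and error bars exact 95% Clopper-Pearson intervals. Genes with a TSS interval in both lists reach 23.1% and 21.6%, and genes with a TSS interval in neither 4.94% and 4.90%.

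After UV the number of downstream intervals was 0.925 times that without UV. This lay between the ratio within 1 kb of a TSS, 1.05, and the ratio deeper in genes, 0.793, and close to the ratio upstream, 0.912. Over all intervals it was 0.869. The share of downstream intervals in the list was 4.03% after UV against 3.78% without UV, and 4.03% against 3.80% when both lists were cut to equal numbers of intervals by strength. The depth of the libraries is unknown, and its part in these numbers was not tested.

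Of the 3360 downstream intervals without UV, 1457 had no UV interval overlapping them by at least 1 bp, while 1903 (56.6%, 95% interval 54.9 to 58.3%) had such a counterpart. Of all intervals without UV, 42.7% had none. After UV, 1192 of 3108 downstream intervals had no counterpart and 1916 (61.6%, 95% interval 59.9 to 63.4%) had one, and of all UV intervals 34.4% had none. Upstream, 59.1% of intervals without UV and 65.3% after UV had a counterpart, and within 1 kb of a TSS 74.1% and 67.8%. The downstream share thus lay near that of the whole list without UV and below it after UV. Which list had the higher share depended on the number of intervals kept: with equal numbers in both lists it was 60.3% without UV and 57.5% after UV, and with a −log10 q of at least 5 it was 58.7% and 54.7%. Nearly all counterparts were downstream intervals themselves: 1748 of the 1903, with 109 that reached within 1 kb of a TSS and 46 elsewhere.

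Having a counterpart depended on strength. In the weakest quartile of the list without UV, 35.4% of the downstream intervals had one, followed by 45.1%, 62.7% and 91.3% in the stronger quartiles. After UV the shares were 46.6%, 52.7%, 67.6% and 89.8%. In the strongest quartile, 641 of 702 downstream intervals without UV and 485 of 540 after UV thus recurred in the other list. Upstream intervals of the same quartiles had 36.0%, 46.8%, 64.7% and 93.8% without UV, with 95% intervals that overlapped those downstream. After UV they had 49.1%, 55.6%, 73.8% and 90.9%, all above the downstream shares, and in the third quartile the 95% interval upstream (71.0 to 76.5%) lay above that downstream (64.4 to 70.7%).

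**Figure D4:**
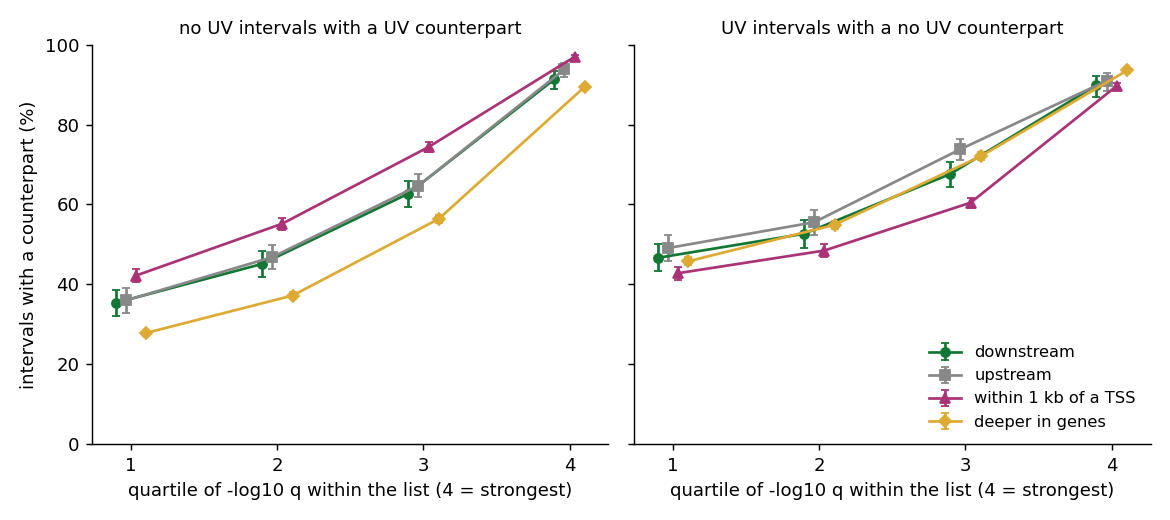
Share of H3.3 intervals with a counterpart in the other list (%) by quartile of −log10 q within the list, without UV (left) and after UV (right); bars are exact 95% Clopper-Pearson intervals, and points are shifted sideways for sight. Downstream intervals rise from 35.4% to 91.3% without UV and from 46.6% to 89.8% after UV, and in the third quartile after UV they lie at 67.6% against 73.8% upstream.

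In 1795 pairs of a downstream interval and its counterpart that overlapped each other most in both directions, the intervals were a median of 486 bp wide without UV and 492 bp wide after UV, and 51.8% were wider after UV (95% interval 49.5 to 54.1%), against 51.6% of all 48161 such pairs of the lists. The summits were a median of 55 bp apart. The rank within the list was higher after UV in 40.8% of the pairs (95% interval 38.5 to 43.1%), which was similar upstream at 40.1% and lower than within 1 kb of a TSS, where 54.1% ranked higher after UV. Over all pairs it was 42.4%, which lay inside the downstream interval, and in pairs deeper in genes 37.1%. Of the summits, 68.5% were within 100 bp of each other. The pairs were chosen by their overlap, which itself limits how far apart their summits can lie. Paired downstream intervals changed rank and width in about the proportions of all pairs.

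The strongest shared downstream intervals, which overlap between the lists by definition, had summits close together. KLF2, a zinc finger transcription factor, had the strongest interval without UV, 687 bp wide and centred 2.17 kb from the 5′ end (chr19:16326651-16327337), with a −log10 q of 156 and a fold enrichment of 26.9. Its UV counterpart was 538 bp wide with a −log10 q of 100.1 and a fold enrichment of 12.6. Both summits lay in the 3′ UTR of this short gene, 10 bp apart. C1QTNF8, which encodes a secreted protein of the C1q and TNF related family, had the strongest interval after UV (chr16:1093245-1094243), with a −log10 q of 191 and a fold enrichment of 26.5, against 77.1 and 9.23 without UV, and summits 3 bp apart in coding exon 4.

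C6orf132 had an interval of 1198 bp in its first intron without UV, 4.64 kb from the 5′ end, with a −log10 q of 122, and one of 630 bp with a −log10 q of 151 after UV. C1QL4, a C1q-like secreted protein, had one of 886 bp without UV and of 1478 bp after UV, with a −log10 q of 90.1 and 85.7. NCR3LG1, a ligand of the natural killer cell receptor NKp30, had one 1.74 kb from its 5′ end, 435 bp wide without UV and 540 bp after UV. PPP1R15A, which targets a phosphatase to the translation factor eIF2α, had one of 1575 bp without UV and of 1409 bp after UV over coding exon 3, each with 2 summits and a fold enrichment of 17.6 in both lists. IL11, a cytokine of the IL-6 family, had one of 520 bp without UV and of 771 bp after UV over coding exon 5, which was also upstream of another gene and held both AP-1 and GC box letters. CAMK2N2, an inhibitor of the kinase CaMKII, had one of 945 bp and 1008 bp in its 3′ UTR. The summits of these 8 pairs were 3 to 21 bp apart, and the lowest rank among them was percentile 98.0, that of CAMK2N2 after UV. Intervals of 6 of the 8 genes held GGGCGG.

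Intervals without a counterpart were weaker, also the strongest of them. Without UV, they were led by RSRC2, with a −log10 q of 17.5 and a fold enrichment of 10.2, AHSG, which encodes the plasma glycoprotein fetuin-A, with a −log10 q of 14.6, ENSG00000265303 with 14.4, ASXL1, a chromatin regulator that partners the deubiquitinase BAP1, with 14.3, and FUT2, a fucosyltransferase, with 14.0. All 5 summits lay in introns, and the GC content of the intervals ranged from 48.0% at FUT2 to 50.7% at ENSG00000265303. The nearest UV interval was 279 bp away at ASXL1, 808 bp at FUT2, 1553 bp at RSRC2, 1674 bp at ENSG00000265303 and 26504 bp at AHSG. The interval of RSRC2 was also upstream of another gene.

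After UV, the strongest without a counterpart were RIMBP3, with a −log10 q of 30.3 in coding exon 1, INKA1, an inhibitor of the kinase PAK4, with 27.8 in coding sequence, GLI2, a transcription factor of the Hedgehog pathway, with 23.6, ZNF521, a zinc finger protein, with 23.4 and TNRC18 with 21.9. Their GC content ran from 59.6% at TNRC18 to 76.1% at ZNF521, above that of all 5 leading intervals found only without UV. The nearest interval without UV was 265 bp away at GLI2 and 1129 to 1701 bp away at TNRC18, INKA1 and ZNF521. At RIMBP3 it was 348314 bp away. The interval of INKA1 was also upstream of another gene.

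This difference in base composition ran through the intervals as a whole. The median GC content of downstream intervals was 50.4% without UV and 51.5% after UV, against 44.3% over the eligible bases. Intervals found only without UV had a median of 49.7% (quartiles 47.1 and 52.3%), and those found only after UV 52.3% (quartiles 49.2 and 58.8%). Those with a counterpart had 51.0% in both lists. The order was the same upstream, and within 1 kb of a TSS the gap was wider, 49.6% for intervals found only without UV against 62.5% for those found only after UV. Intervals near a TSS with a counterpart had 63.7% without UV and 63.0% after UV. Those found only after UV thus did not lie above the shared ones there, as they did downstream.

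**Figure D5:**
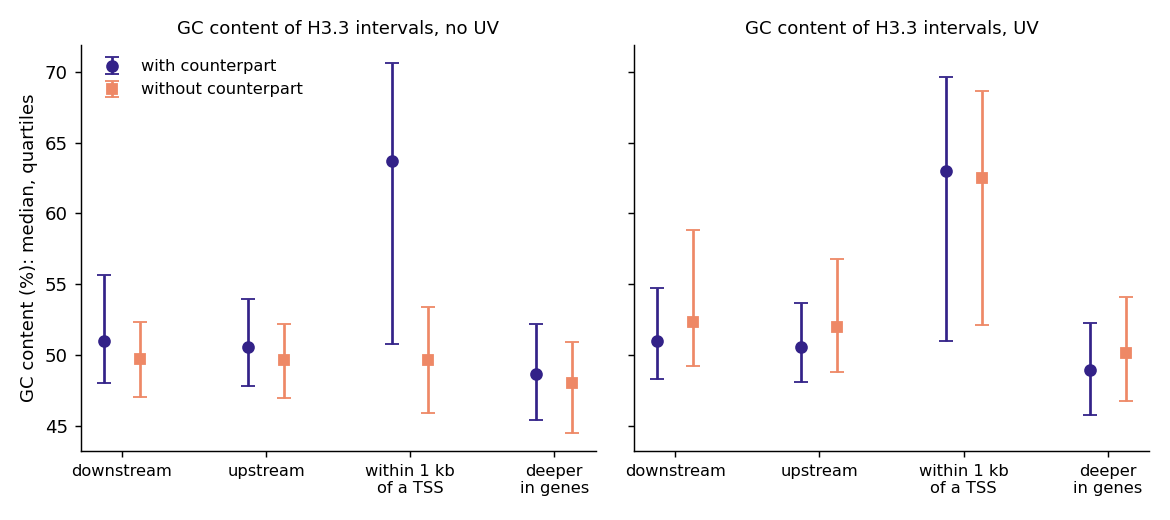
GC content of H3.3 intervals (%) by position, without UV (left) and after UV (right); points are medians, and bars run from the lower to the upper quartile for intervals with a counterpart in the other list (circles) and without one (squares). Downstream intervals without a counterpart have a median of 49.7% without UV and 52.3% after UV.

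The dependence on GC content was also seen over the eligible bases themselves, sorted in 500-bp windows into 10 classes of about equal size. Without UV, downstream density rose from 2.60 intervals per Mb in the class of lowest GC content to 138.7 per Mb in the class from 48.6 to 51.4%, and was 108.7 per Mb in the class above 55.8%. After UV it rose from 1.81 per Mb in the lowest to 156.1 per Mb in the highest class. The highest class was the only one of the 10 with more intervals after UV, 730 against 511, while for example the class from 39.2 to 41.6% had 117 against 185. At equal GC content the ratio of downstream to upstream density was 1.07 without UV and 1.05 after UV, as an average over classes that lay on both sides of 1. In the class from 39.2 to 41.6%, for example, it was 1.35 without UV and 1.21 after UV. In the class from 51.4 to 55.8% it was 0.909 and 0.898, and above 55.8% it was 0.881 and 0.957. The part of GC content in the differences between the lists was not tested.

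Motif letters were searched on both strands in the 300 bp around the strongest summit: TGANTCA (AP-1), TGACGTCA (CRE), CCGGAAG (ETS), GGGCGG (SP and KLF), GGAATGT (TEAD), AACCACA (RUNX), TTGCNNAA (C/EBP), CACGTG (E-box) and the CTCF core. GGGCGG was the most frequent, in 20.8% of the downstream windows without UV (95% interval 19.4 to 22.2%) and 25.6% after UV (95% interval 24.1 to 27.2%), against 6.89% of consecutive 300-bp windows of the downstream zone. All intervals of the lists had it in 21.1% and 27.7%, and intervals within 1 kb of a TSS in 42.4% and 49.8%. Among downstream intervals without a counterpart it was in 14.8% without UV (95% interval 13.0 to 16.7%) and 27.3% after UV (95% interval 24.8 to 30.0%). The motif consists of G and C alone.

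AP-1 letters, which factors of the JUN and FOS families bind, were in 5.57% of the downstream windows without UV (95% interval 4.81 to 6.40%) and 5.66% after UV (95% interval 4.88 to 6.53%), against 8.55% of windows of the zone, 7.43% of all intervals without UV and 6.85% after UV. With and without a counterpart the shares were 5.73% and 5.35% without UV, and 5.38% and 6.12% after UV, with overlapping intervals. C/EBP letters were in 5.24% and 5.15% of downstream windows and 14.1% of the zone's windows. The E-box was in 3.75% and 4.31% against 3.09%, ETS letters in 1.64% and 1.77% against 0.964%, TEAD letters in 2.02% and 1.54% against 3.83%, and RUNX letters in 2.65% and 1.96% against 4.94%. AP-1, C/EBP, TEAD and RUNX letters were thus rarer under the intervals than in the zone, and GGGCGG, ETS and E-box letters more frequent. The zone's windows were not matched to the intervals in GC content. Its median in the intervals was 50.4% without UV and 51.5% after UV, and its pooled share over the eligible bases was 44.3%. The part of base composition in these motif shares was not tested. CRE letters were in 9 and 8 windows. The CTCF core, also rich in G and C, was in 1 window without UV and 0 of 3108 after UV, against 0.146% of the zone's windows. The 0 allows a share of up to 0.0965% by the limit of 3 counts and of up to 0.119% by the exact 95% interval.

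Gene groups of the tissue and treatment were described by how many of their genes had a downstream interval, against the 14.5% and 13.7% of all genes. The groups are small, and their shares were not tested. The 95% interval of a group's share contained the share of all genes except where stated. Among immediate early and stress response genes, which cells switch on within minutes to hours of stress, 7 of 26 had one without UV and 6 after UV, with 4 in both lists. JUN, a subunit of AP-1, had 3 without UV, with a −log10 q of 36.0, 4.92 and 5.77 at 1.56, 2.17 and 3.46 kb from the 5′ end. After UV it had 2, with 22.3 at 1.48 kb and 16.3 at 2.25 kb, and no counterpart of the third. FOSB, another AP-1 subunit, had an interval 4.78 kb from the 5′ end without UV and one 4.71 kb away after UV, with a −log10 q of 10.8 and 32.6. At FOSL1, a further member of the family, 1 interval of 3208 bp without UV faced 2 after UV, of 421 and 1110 bp. DUSP5, a phosphatase of ERK, had 1 in each list that did not overlap, at 2.07 kb without UV and 1.56 kb after UV.

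Among nucleotide excision repair genes, whose products remove UV lesions, 10 of 29 had a downstream interval without UV (34.5%, 95% interval 17.9 to 54.3%) and 9 after UV (31.0%, 95% interval 15.3 to 50.8%), with 7 in both. The lower bound lay above the share of all genes in each list, in a group picked with earlier results of these data known. Of the 30 genes listed, 20 had a TSS interval without UV and 25 after UV. The shares among all genes with a TSS interval, 22.8% without UV and 20.3% after UV, lay inside the group's 95% intervals. ERCC6, the CSB protein of transcription-coupled repair, had 1 of 720 bp without UV, with a −log10 q of 17.1, and 1 of 297 bp after UV, with 3.06. CDK7, the kinase of TFIIH, had 3 without UV and 1 after UV, of 1370 bp. GTF2H5, a small subunit of TFIIH, had 1 without UV and 3 after UV, all with a −log10 q under 8 in either list.

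Of the genes for H3.3 and its chaperones, 5 of 13 had a downstream interval without UV and 4 after UV. DEK, a chromatin protein that binds H3.3, had 1 of 1229 bp without UV and of 942 bp after UV, with a −log10 q of 21.4 and 9.11. ASF1B, which hands H3 and H4 to other chaperones, had 1 of 357 bp and 1114 bp. CHD2, a chromatin remodeller, had 3 without UV and 1 after UV, and CABIN1, a subunit of the HIRA complex, had 1 without UV only. H3-3B, one of the genes that encode H3.3, had 3 without UV and 2 after UV.

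Among genes of TGF-β and YAP signalling and the actin cytoskeleton, 7 of 27 had one without UV and 9 after UV (33.3%, 95% interval 16.5 to 54.0%, which lay above the 13.7% of all genes). All 30 genes of this group had a TSS interval after UV. Among all genes with a TSS interval after UV the share was 20.3%, which lay inside the group's 95% interval. AHNAK, a large scaffold protein, had 2 after UV, of 1662 and 318 bp, and both overlapped intervals without UV that were not counted downstream. ACTN4, an actin crosslinker, had intervals of 1617 and 653 bp without UV, and after UV 3 of 428, 1159 and 609 bp over the same stretch. MYL9, a myosin light chain, had 1 of 392 bp without UV and of 910 bp after UV, with a −log10 q of 3.19 and 15.6.

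Of extracellular matrix genes, 4 of 20 had one without UV and 5 after UV. COL5A1, a chain of type V collagen, had 2 without UV, with a −log10 q of 12.2 and 13.1, and 3 after UV, with 5.43, 27.9 and 32.5. VCAN, the proteoglycan versican, had 1 of 1077 bp without UV and of 441 bp after UV. FN1, fibronectin, had 1 at 2.05 kb in both lists, 452 bp and 412 bp wide. THBS1, thrombospondin 1, had 1 after UV only, with a −log10 q of 4.10.

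Of genes for transcription elongation, 6 of 27 had one in each list, 3 of them in both. ELL, an elongation factor, had 1 of 1300 bp without UV and of 931 bp after UV. NELFB, a subunit of the pausing factor NELF, had 2 without UV and 3 after UV, all with a counterpart. MEPCE, which caps the 7SK RNA, and HEXIM1, which inhibits P-TEFb on 7SK, each had 1 after UV only, and that of HEXIM1 overlapped an interval without UV. Of the genes of other cell types, none of 14 neuronal and none of 14 liver genes had a downstream interval in either list, and of 14 blood cell genes CSF1R, the receptor of macrophage colony-stimulating factor, had 1 without UV.

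The limits cut through continuous ranges of distance. Without UV, the 835 intervals that lay 1 to 1.5 kb from a TSS had a median −log10 q of 4.92 and GC content of 51.4%, and the 981 otherwise qualifying ones at 0.5 to 1 kb had 5.54 and 52.7%. A counterpart was found for 60.0% of those inside this limit and 67.8% of those outside it. After UV these shares were closer, at 59.4% and 61.6%. Without UV, intervals centred 4 to 5 kb downstream had a median −log10 q of 4.61, and those centred 5 to 6 kb downstream 4.92. The member nearest the 5-kb limit without UV was that of PHLDB3 at 5000 bp, with a −log10 q of 2.09, and the nearest outside it that of ARCN1 at 5001 bp, with 2.90. After UV these were SOD2 at 5000 bp, with 12.5, and TRIM46 at 5002 bp, with 25.5. At the limit of 1 kb from a TSS, NKIRAS2 lay just inside at 1001 bp without UV and PIDD1 just outside at 1000 bp, with a −log10 q of 3.84 and 8.71, and after UV MPND at 1001 bp and FBLIM1 at 1000 bp, with 4.94 and 29.6.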

How the data were processed

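H3.3 ChIP-seq peak lists of 1 library without UV and 1 after UV were analysed, grouped by the treatment in the sample labels. Per the labels and the study's methods, the authors used bcl2fastq 2.17, ran Trimmomatic 3.36 for trimming and BWA 0.7.12 for alignment to hg38, removed duplicates and called peaks. The labels name MACS 1.4.2, which is not known to write this file format with q-values and summits, so the caller's version is uncertain. The control and threshold of the H3.3 calls are not given in the sources used here, and the lowest −log10 q in both lists is 1.30. The deposited rows give a score, a fold enrichment (a linear ratio over local background) and the −log10 of a p-value and of a q-value, all set by the authors within each library. Rows that repeat an interval were merged, keeping the summit with the highest −log10 q. The input libraries were not analysed here.

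Genes and 218307 TSS positions were those of GENCODE 44, with the 5′ end of the gene model, for 19970 protein-coding genes. Members and gene lists were chosen with earlier results of these data known. Named genes followed a rule by −log10 q, 1 interval per gene: the 8 strongest shared intervals without UV, the 5 strongest of each list without a counterpart, the 5 genes with most intervals (SLC7A5 and ASB16, which tie with the last 3, were added after their values were seen), up to 4 genes of each list, and the intervals next to the limits. H3-3B and the cell type markers named were picked after their values were seen. Sequence windows came from hg38, and KLF2 was passed over because its window overlaps a UTR. Some genes and sequences that the rule selects are not reported here. Density ratios have conditional binomial 95% intervals, which take the sides as separate counts although some intervals lie in both zones. The alternatives were a minimum −log10 q of 3 or 5, lists cut to equal length, summit positions, a zone from 2 to 5 kb, intervals in both zones left out, longer genes, canonical 5′ ends, TSSs of protein-coding genes, 50% overlap, equal GC content and a 100-bp motif window. The zone assignment, density ratio and overlap were checked on simulated intervals. The work used pysam 0.24.0, scipy 1.17.1, pandas 2.3.3, numpy 2.4.6 and matplotlib 3.10.9 in Python 3.11.15.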

Additional observations from a re-analysis of the deposited data

How the results depend on the processing

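No paired analysis was possible because each condition is 1 library and the labels give no replicate numbers, and leaving out a replicate was not possible for the same reason. Of the values under an alternative, 82 stayed within the 95% interval of the reported value or moved by less, 28 lay outside it, and none of the density ratios crossed 1. The causes were not tested, except that narrower zones or fewer genes hold fewer intervals. With a zone from 2 to 5 kb, the density ratio was 1.21 without UV and 1.18 after UV, the share of the list 2.11% and 2.14%, and counterparts without UV 54.2%. With a minimum −log10 q of 5, the ratio was 1.01 without UV, the share of the list 3.49% and 3.72%, counterparts 58.7% and 54.7%, and AP-1 letters 4.69% without UV. With a minimum of 3, counterparts after UV were 58.6%. With equal numbers of intervals, counterparts were 60.3% and 57.5%, and with an overlap of at least 50% they were 54.1% and 58.9%. With canonical 5′ ends, the ratio was 1.14 after UV and the share of the list 3.95% and 4.25%. The share of the list was 4.01% and 4.29% with TSSs of protein-coding genes only, 2.88% and 3.09% without intervals in both zones, and 3.44% and 3.56% with genes of at least 6 kb, where counterparts without UV were 54.6%. In 100 bp around the summit, AP-1 letters were in 1.61% and 1.42%. The ratios at 1 to 2 kb and 3 to 5 kb were added after the data were seen, and their values moved by less than counting error. Without the depth of the libraries, absence from a list does not show absence of H3.3.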
